A study of Mus musculus with 4 samples.

Results

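The genes described here encode the kinetochore, the centromeric chromatin it is built on, and the spindle checkpoint that watches over it. Members were taken from the mouse array's annotation by symbol alone. They are the genes whose symbol starts with Cenp (21 genes) and 24 of 26 listed subunits and regulators, 45 genes in all. The remaining listed genes, Sgol1 and Sgol2a, are carried by the annotation as Sgo1 and Sgo2a and are given with the other genes of the pathway. Each gene was represented by the probe set with the highest mean over the 4 arrays. Of the 45 genes, 43 passed the filter on dim probe sets, out of 11395 genes that did. The other 2, Cenpb and Mad1l1, were too dim to be tested.

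Intestinal crypts, small pits of the gut lining where stem cells and their daughters divide, were cut from mouse tissue with a laser. Crypts from control mice (2 arrays) were set against crypts from mice in which deletion of the beta-catenin gene had been induced with tamoxifen 2 days earlier (2 arrays). The labels give day 2 for the control arrays as well. The mRNA went through 2 rounds of amplification before it was labelled and hybridised to an Affymetrix array. The labels state neither what drives the deletion, the strain nor the age of the mice, nor whether controls also received tamoxifen. Nothing in the labels ties an array to its own animal, so a p-value here reflects no more than array to array spread, which may be technical.

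The kinetochore is the protein machine that joins a chromosome to the spindle. It rests on nucleosomes that hold the histone variant Cenpa, to which an inner layer of proteins binds all through the cell cycle, and an outer layer that grips microtubules is added for mitosis. The spindle checkpoint delays separation of the sister chromatids until every kinetochore is attached. Most of these genes are transcribed mainly from S phase to mitosis, so that their transcripts come from dividing cells. In the intestine those are the stem cells and transit amplifying cells of the crypt, whose division depends on Wnt signalling through beta-catenin.

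Kinetochore transcripts were at lower levels in the mutant crypts across nearly the whole machine, although no single gene passed the test. Of the 43 genes, 41 had a lower mean in the mutants and 2 (Cenpj and Cenpm) a higher one, where 49.3% of all tested genes were lower. The median difference was -0.61 on the log2(signal + 5) scale, against 0.01 over all tested genes, and the members ranged from -1.97 for Cenpk to 0.18 for Cenpj. In 26 genes both mutant values lay below both control values, against 19.2% of all genes, and in 0 members both lay above. With limma, 0 of the 43 genes passed at an adjusted p below 0.05, as did 0% of all probe sets, and the members' adjusted p ran from 0.768 to 0.995. At an unadjusted p below 0.05 limma gave 12 members, all lower, where 3.62% of all genes were lower at that level. Without control replicate 2 the members' median was -0.41, with 35 of the 43 lower. Without mutant replicate 1 it was -0.58, with 37 lower, so both medians were smaller in size than with all arrays. RNA was taken from whole crypts, so that fewer dividing cells and less RNA per cell cannot be told apart.

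**Figure D1:**
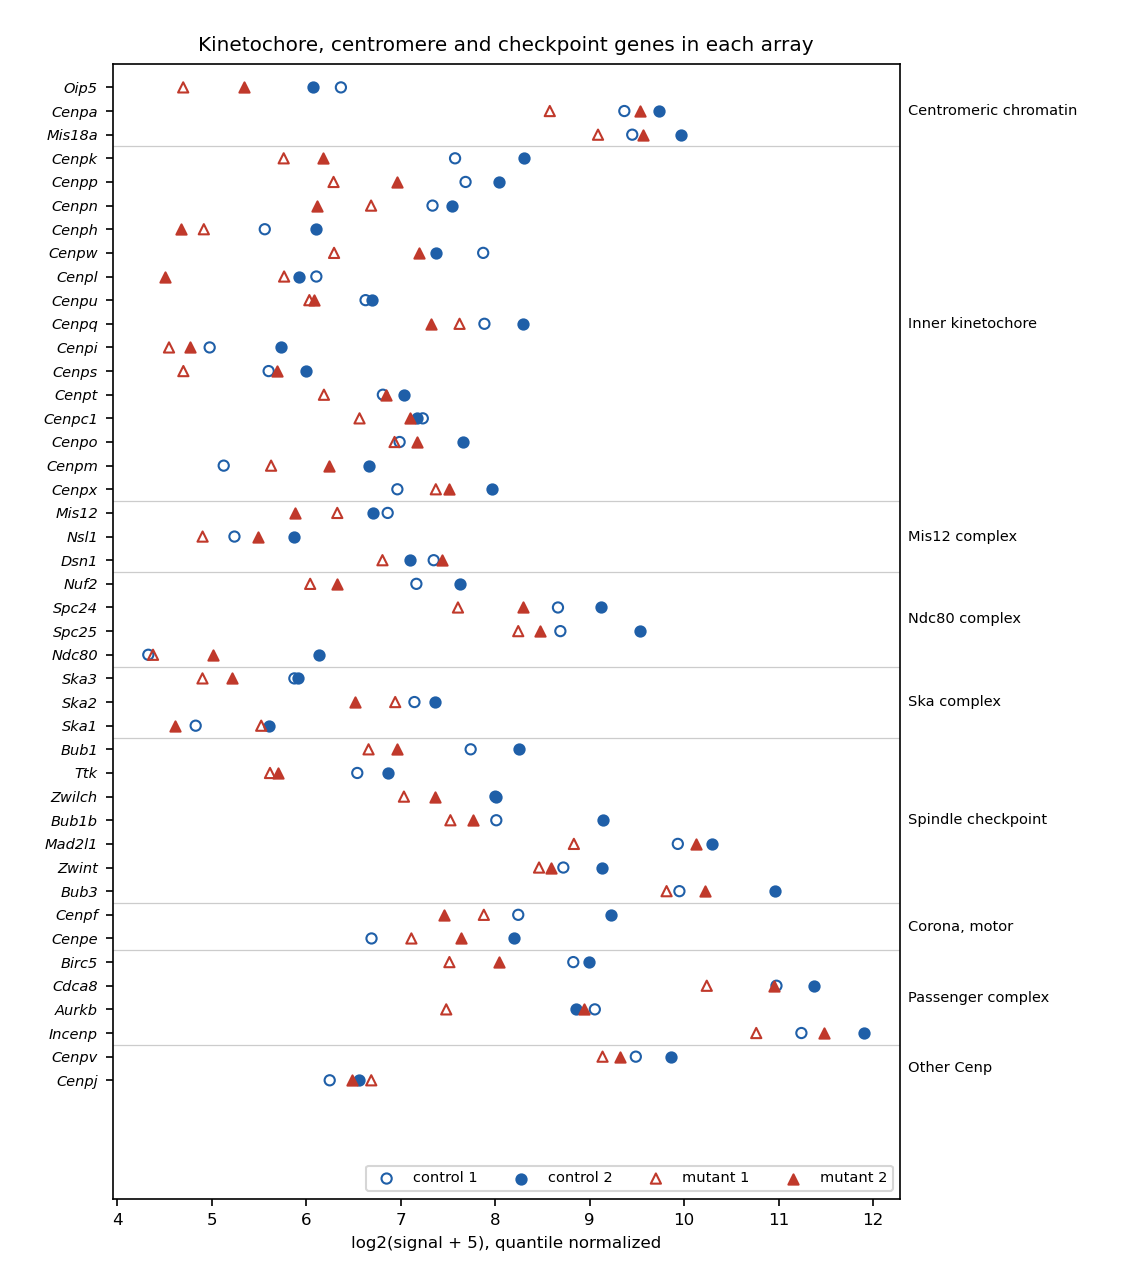
Log2(signal + 5) of the 43 kinetochore, centromere and checkpoint genes in each of the 4 arrays, by role; circles are controls, triangles mutants, open symbols replicate 1 and filled symbols replicate 2. In 26 genes both triangles lie left of both circles, and control replicate 2 is the highest array in 35 genes.

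The members also differed between arrays of the same group, and in the same order in both groups. Control replicate 2 stood above control replicate 1 in 36 of 43 genes, against 56.8% of all genes, with a median gap of 0.40. Mutant replicate 2 stood above mutant replicate 1 in 34 of 43, against 50.1% of all genes, with a median gap of 0.33. Set against their own mean over the 4 arrays, the members stood on average at 0.10 and 0.56 (controls) and at -0.48 and -0.18 (mutants). Both mutant arrays thus lay below both control arrays for the list, and the nearest pair across groups was control replicate 1 and mutant replicate 2. In 15 members mutant replicate 2 exceeded control replicate 1, and in 6 mutant replicate 1 did.

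Several array properties were set beside these levels. The signal ratio of the 5' to the 3' beta-actin control probe sets, which reflects the length of the labelled RNA, was 0.149 in control replicate 1, 0.0567 in control replicate 2, 0.0945 in mutant replicate 1 and 0.0448 in mutant replicate 2. Within each group it was thus lower in the array numbered 2, where the members were higher. Between groups the orders differed. Mutant replicate 2 had the lowest ratio of all, and the members stood at -0.18 there, below control replicate 1 (0.10) and control replicate 2 (0.56). Of 10 pancreas markers, 8 passed the filter, with a mean log2 level of 12.81 in mutant replicate 1 and of 4.02 to 4.37 in the other 3 arrays. Pancreatic transcripts thus marked out mutant replicate 1. Enterocyte markers (3 of 4 past the filter) averaged 12.69 and 12.32 (controls) against 12.87 and 11.94 (mutants). Lymphocyte markers (3 of 4) averaged 6.49 and 5.53 against 7.03 and 6.40, and stromal markers (4 of 4) 8.17 and 8.67 against 8.52 and 8.58. The mean level of the 6 markers of crypt epithelium was between 11.72 and 11.95 in each of the 4 arrays, while single markers differed by -0.63 (Cdh1) to 0.32 (Vil1). None of these markers was listed at 0. Markers of crypt base stem cells were lower in 4 of 4 cases, with a median of -1.12, and goblet cell markers were higher in 3 of 3, with a median of 0.56. Paneth cell markers were lower in 3 of 3, with a median of -0.47, and against their own mean they stood at 0.10 and 0.40 (controls) and at -0.46 and -0.05 (mutants), the order of arrays that the members had. Smooth muscle markers (2 of 3 past the filter) were both higher, with a median of 0.31. The remaining marker, Des, was below the filter at 4.11 and 3.71 (controls) against 5.54 and 5.66 (mutants). Without mutant replicate 1, 37 of the 43 members were lower and their median was -0.58. Without control replicate 2, the highest array in 35 members, 35 were lower and the median was -0.41. The part of RNA length and cell makeup in the difference was not tested.

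Ctnnb1, the targeted gene, had log2 levels of 12.43 and 12.56 (controls) against 12.02 and 11.86 (mutants) on its brighter probe set, a difference of -0.56 (SE 0.22; limma, adjusted p = 0.785). Its dimmer tested probe set differed by 0.38 (SE 0.50), and the last of its 3 probe sets was below the filter. The labels do not name the exons deleted, and how the probe sets lie to them was not examined.

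Genes of mitosis often carry a cell cycle homology region (spelled TTTGAA, or in a variant form TTCGAA) close to their transcription start, where the DREAM and MuvB complexes bind, and CCAAT boxes bound by NF-Y some way before it. RefSeq promoter windows (GRCm38.p6, 250 bases before to 50 after the start) matched 39 of the 45 members by symbol, with 44 windows. Aurkb, Incenp, Nsl1, Ska1, Spc24 and Zwilch were not matched. On either strand, 38.6% of the members' windows held a homology region against 13.8% of the 11849 windows of genes tested and 19.2% of all 32851 windows in the table. Within 50 bases of the start, a limit chosen after the positions had been seen, it was in 29.5% of the members' windows against 3.62% of those of genes tested and 5.31% of all windows. CCAAT was in 63.6% against 37.4% of windows of genes tested and 37.4% of all windows. The E2F letters TTTGGCG or, in the variant form, TTTCGCG were in 6.82%, 4.04% and 2.37%, in the same order, and among the members in Cdca8, Cenpl and Cenpp. For CTTTGAT, a form of the motif of the TCF factors that work with beta-catenin, these shares were 2.27%, 2.57% and 3.73%, and the member was Bub1b. CTTTGAA, which contains TTTGAA, was in 2.27%, 3.67% and 5.14%, and the member was Oip5. These are matches of letters in a window, and sites bound in these cells were not measured. The 16 members with a homology region, all of them tested, had a median difference of -0.86 and the 21 tested members matched without one a median of -0.60, a contrast that was not tested.

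**Figure D2:**
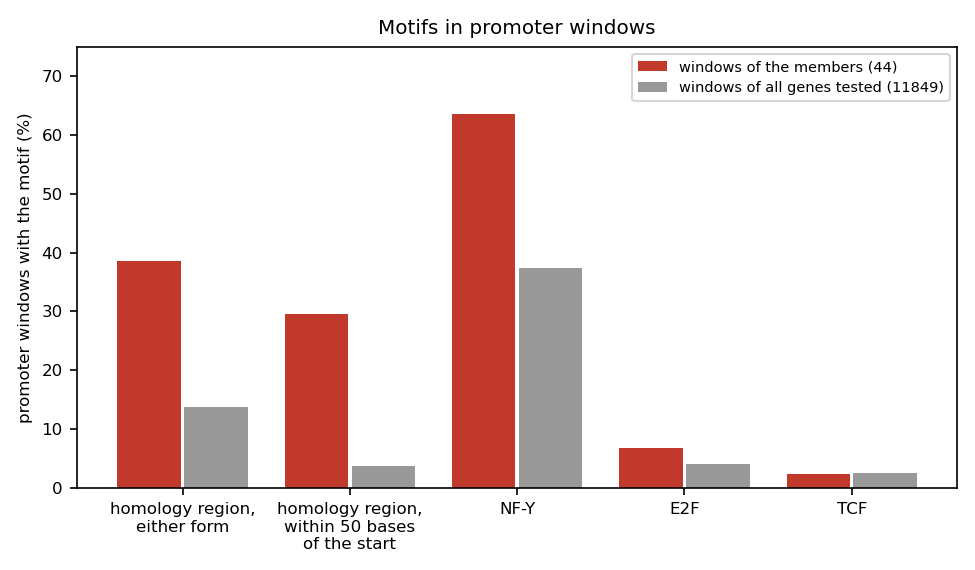
Share of promoter windows (percent, bars from 0) that hold each motif on either strand, for 44 windows of the members and 11849 windows of all genes tested. The homology region is in 38.6% of the members' windows and 13.8% of those of all genes tested, while the TCF motif is in 2.27% and 2.57%. Within 50 bases of the start, a limit chosen after the positions had been seen, the homology region is in 29.5% and 3.62%.

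The promoters of 6 genes described below are printed to show where these letters lie. They were taken by smallest p among the genes described in depth whose window holds a homology region. Each is written 5′ to 3′ on the strand of the gene, in lower case, with the homology region in capitals (on the other strand TTTGAA reads TTCAAA) and also the CCAAT box (which there reads ATTGG). The windows are Bub1 (chr2:127831810-127832109, minus strand), Oip5 (chr2:119618456-119618755, minus strand), Ttk (chr9:83834439-83834738, plus strand), Cenpf (chr1:189688037-189688336, minus strand), Bub1b (chr2:118597961-118598260, plus strand) and Ska3 (chr14:57826114-57826413, minus strand).
Bub1: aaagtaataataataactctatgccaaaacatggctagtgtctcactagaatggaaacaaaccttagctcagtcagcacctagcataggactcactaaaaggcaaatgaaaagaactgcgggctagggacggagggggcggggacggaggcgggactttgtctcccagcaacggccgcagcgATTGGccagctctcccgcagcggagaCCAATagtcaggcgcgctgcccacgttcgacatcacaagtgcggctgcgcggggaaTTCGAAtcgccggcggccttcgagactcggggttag
Oip5: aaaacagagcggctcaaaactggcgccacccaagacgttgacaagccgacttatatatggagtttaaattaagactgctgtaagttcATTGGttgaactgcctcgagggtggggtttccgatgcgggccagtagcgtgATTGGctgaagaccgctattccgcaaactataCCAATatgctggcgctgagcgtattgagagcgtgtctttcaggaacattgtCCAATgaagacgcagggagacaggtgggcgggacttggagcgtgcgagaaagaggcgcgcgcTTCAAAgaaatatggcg
Ttk: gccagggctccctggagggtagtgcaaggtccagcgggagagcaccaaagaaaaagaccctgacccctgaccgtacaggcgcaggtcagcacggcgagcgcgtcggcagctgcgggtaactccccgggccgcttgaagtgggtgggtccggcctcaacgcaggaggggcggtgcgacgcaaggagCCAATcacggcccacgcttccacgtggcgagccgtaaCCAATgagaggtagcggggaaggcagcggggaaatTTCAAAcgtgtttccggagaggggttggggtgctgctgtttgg
Cenpf: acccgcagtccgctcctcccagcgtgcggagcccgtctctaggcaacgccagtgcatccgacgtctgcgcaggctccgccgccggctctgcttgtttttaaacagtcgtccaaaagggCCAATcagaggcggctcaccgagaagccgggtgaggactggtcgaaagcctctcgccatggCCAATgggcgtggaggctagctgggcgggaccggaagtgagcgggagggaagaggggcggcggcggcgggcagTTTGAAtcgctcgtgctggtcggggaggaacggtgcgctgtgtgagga
Bub1b: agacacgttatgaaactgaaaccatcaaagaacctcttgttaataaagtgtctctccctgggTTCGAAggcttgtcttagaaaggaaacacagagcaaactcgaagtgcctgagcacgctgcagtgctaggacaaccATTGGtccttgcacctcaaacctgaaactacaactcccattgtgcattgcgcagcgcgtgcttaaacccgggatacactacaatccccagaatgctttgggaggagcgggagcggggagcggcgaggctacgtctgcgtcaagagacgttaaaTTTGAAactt
Ska3: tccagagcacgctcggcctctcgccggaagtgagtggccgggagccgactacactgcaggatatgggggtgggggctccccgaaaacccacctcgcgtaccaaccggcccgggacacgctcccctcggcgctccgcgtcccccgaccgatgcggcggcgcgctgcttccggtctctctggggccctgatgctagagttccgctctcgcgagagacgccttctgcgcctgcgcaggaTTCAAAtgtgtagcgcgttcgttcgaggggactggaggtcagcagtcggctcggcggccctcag
Counted from the start as base 1, the homology region begins at base 15 in Bub1, 34 in Oip5, 8 in Ttk, 3 in Cenpf and 41 in Bub1b, and 14 bases before the start in Ska3. Bub1b has a further one 188 bases before the start. CCAAT lies before the start in each of these windows except that of Ska3, which holds none, and Oip5 has 4 copies at 163, 112, 80 and 29 bases before the start.

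Centromeric chromatin was represented by 3 tested genes, all lower in the mutants, with a median of -0.50. Cenpa itself, the histone H3 variant that marks the centromere, had log2 levels of 9.37 and 9.74 (controls) against 8.58 and 9.54 (mutants). Mutant replicate 1 was the low array, while mutant replicate 2 lay between the controls, and the difference of -0.50 (SE 0.40) became -0.02 without mutant replicate 1. The dimmer Cenpa probe set that passed the filter differed by -0.89 (SE 0.39), with both mutants below both controls. Oip5, also called Mis18 beta, belongs to the complex that prepares the centromere for new Cenpa. It stood at 6.37 and 6.07 (controls) against 4.70 and 5.34 (mutants), so the groups did not overlap, and differed by -1.20 (SE 0.42). Its partner Mis18a overlapped between groups on the brighter probe set, at 9.45 and 9.97 (controls) against 9.09 and 9.57 (mutants) and a difference of -0.38 (SE 0.35), whereas the dimmer one differed by -0.98 (SE 0.34) without overlap. Cenpb, which binds a DNA motif in centromeric repeats, was below the filter at 4.53 and 4.95 (controls) against 3.88 and 5.31 (mutants).

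The inner kinetochore, the layer that stays on the centromere throughout the cell cycle, was covered by 15 genes. Of these 14 were lower and 1 higher, and the median was -0.61. In 10 the mutants lay below the controls without overlap, against 19.2% of all genes. Cenpk had the lowest difference of all 43 members. Its deposited signals were 188 and 312 (controls) against 55.5 and 53.8 (mutants), and its normalized log2 levels 7.57 and 8.30 (controls) against 5.76 and 6.18 (mutants). Both mutants were thus more than 1 log2 unit below both controls. The group values were 7.94 ± 0.52 (SD, n = 2) for control and 5.97 ± 0.30 (SD, n = 2) for mutant crypts, a difference of -1.97 (SE 0.40) or 3.91-fold lower (limma, adjusted p = 0.768). It lay between -2.33 and -1.60 when 1 array was left out.

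Cenpk works in a subcomplex with Cenph, Cenpi and Cenpm, and the members of that subcomplex did not all behave as Cenpk did. Cenph had levels of 5.56 and 6.10 (controls) against 4.91 and 4.68 (mutants) and a difference of -1.03 (SE 0.43), and Cenpi differed by -0.70 (SE 0.47), both without overlap. Cenpm stood at 5.12 and 6.67 (controls) against 5.63 and 6.24 (mutants), a difference of 0.03 (SE 0.55), with control replicate 1 the lowest array and control replicate 2 the highest. Its sign turned with the array left out, from -0.74 without control replicate 1 to 0.81 without control replicate 2.

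Among the members Cenpo, Cenpp, Cenpq and Cenpu, which share a subcomplex, Cenpp was the lowest. It had levels of 7.69 and 8.04 (controls) against 6.29 and 6.96 (mutants), without overlap, and differed by -1.24 (SE 0.39). Its other tested probe sets differed by -1.22 (SE 0.40) and -0.53 (SE 0.46). Cenpq and Cenpu differed by -0.61 (SE 0.36) and -0.60 (SE 0.35), also without overlap, and Cenpo by -0.27 (SE 0.38) with overlap. The Cenpa-binding pair Cenpn and Cenpl differed by -1.04 (SE 0.38) and -0.88 (SE 0.50), and in both genes mutant replicate 2 was the lowest array. Without it the Cenpl difference was -0.25.

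The histone fold proteins Cenpt, Cenpw, Cenps and Cenpx, which bind DNA next to Cenpa, gave differences from -0.88 for Cenpw to -0.02 for Cenpx. Only in Cenpw among these 4 did the groups not overlap. Cenpt differed by -0.41 (SE 0.39) and Cenps by -0.61 (SE 0.47), and in both mutant replicate 2 lay between the controls. Cenpc1, the scaffold that ties Cenpa to the outer layer, differed by -0.37 (SE 0.37); its levels were 7.23 and 7.17 (controls) against 6.56 and 7.10 (mutants), with mutant replicate 2 just below both controls.

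The outer layer that holds microtubules is formed by the Mis12, Ndc80 and Ska complexes. All 4 Ndc80 complex genes were lower, with a median of -0.85 and 3 of 4 without overlap (against 19.2% of all genes). Nuf2 had levels of 7.16 and 7.63 (controls) against 6.04 and 6.33 (mutants) and differed by -1.21 (SE 0.37). Spc24, at 8.66 and 9.12 (controls) against 7.60 and 8.29 (mutants), differed by -0.94 (SE 0.39), and Spc25 by -0.75 (SE 0.39). On these probe sets, every mutant value of these 3 genes lay below the gene's control values. A dimmer tested Spc25 probe set overlapped between groups and differed by -0.15 (SE 0.47). Ndc80, which carries the microtubule-binding head with Nuf2, was near the filter level in control replicate 1 and both mutants, at 4.33 and 6.13 (controls) against 4.38 and 5.01 (mutants). Its difference of -0.54 (SE 0.64) rested on control replicate 2 and became 0.37 without that array.

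In the Mis12 complex, the bridge between the inner layer and Ndc80, all 3 genes were lower with a median of -0.36. Mis12 had levels of 6.86 and 6.71 (controls) against 6.33 and 5.88 (mutants), without overlap, and differed by -0.68 (SE 0.37). Nsl1 and Dsn1 overlapped between groups, at -0.36 (SE 0.45) and -0.10 (SE 0.38), and Dsn1 was highest in mutant replicate 2.

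The Ska complex, which steadies attachment to the ends of microtubules, also had 3 lower genes of 3. Ska3 stood at 5.87 and 5.91 (controls) against 4.90 and 5.22 (mutants) and differed by -0.83 (SE 0.40), and Ska2 at 7.14 and 7.36 (controls) against 6.94 and 6.51 (mutants) differed by -0.52 (SE 0.36), both without overlap. Ska1 differed by -0.15 (SE 0.51) with overlap on its brightest probe set and by -1.87 (SE 0.75) without overlap on another. Unlike in the full list of members, mutant replicate 2 was the lower mutant array for Ska1 and Ska2.

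**Figure D3:**
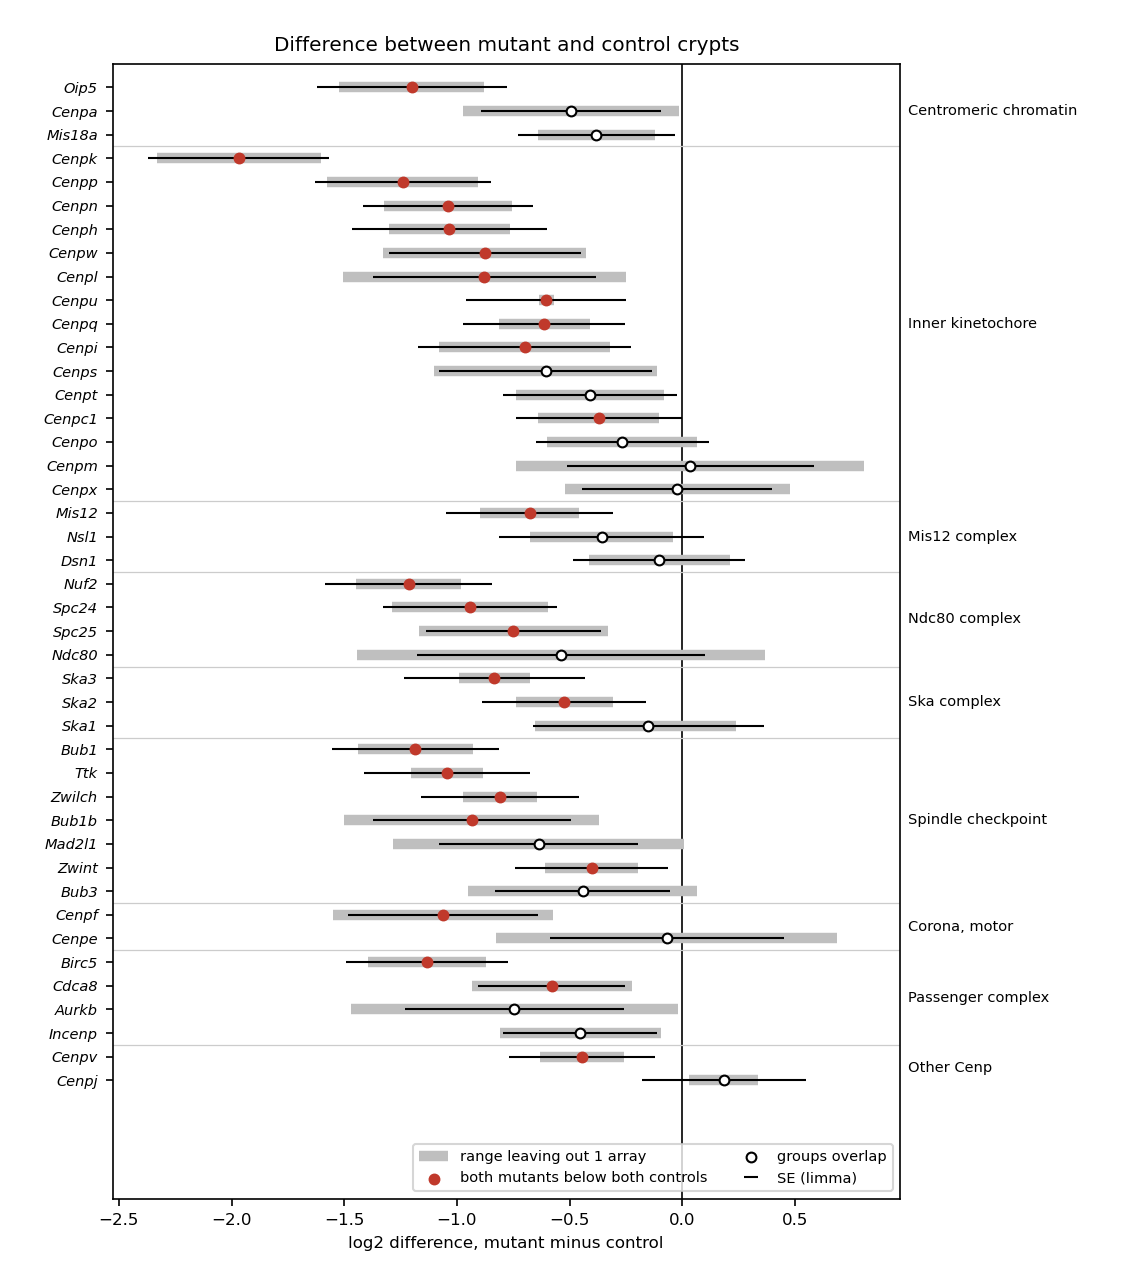
Log2 difference, mutant minus control, of each of the 43 tested genes by role; black lines are the SE of the limma fit, grey bars the range when each array is left out in turn, and filled points genes whose groups do not overlap. The points run from -1.97 for Cenpk to 0.18 for Cenpj, and 41 lie left of 0.

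Spindle checkpoint genes were lower in all 7 tested cases, 5 without overlap (against 19.2% of all genes), with a median of -0.81. Bub1, a kinase that recruits other checkpoint proteins to the kinetochore, had levels of 7.74 and 8.25 (controls) against 6.66 and 6.96 (mutants). Its values were 7.99 ± 0.36 (SD, n = 2) for control and 6.81 ± 0.21 (SD, n = 2) for mutant crypts, a difference of -1.18 (SE 0.37), and both mutants were below both controls. The dimmer Bub1 probe set differed by -1.65 (SE 0.56). Ttk, the Mps1 kinase that starts checkpoint signalling, stood at 6.54 and 6.86 (controls) against 5.61 and 5.69 (mutants) and differed by -1.04 (SE 0.37). The 2 mutant values were close together and lay below both controls, and the dimmer Ttk probe set differed by -1.19 (SE 0.48).

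Bub1b, which encodes BubR1, a part of the complex that inhibits the anaphase promoting complex, had levels of 8.01 and 9.14 (controls) against 7.52 and 7.76 (mutants) and differed by -0.93 (SE 0.44). On this probe set its groups did not overlap, but the controls were more than 1 log2 unit apart. Another tested Bub1b probe set overlapped between groups and differed by -0.55 (SE 0.45). Zwilch belongs to the complex that brings dynein and Mad1 to kinetochores. It differed by -0.81 (SE 0.35), with mutant levels of 7.03 and 7.36 below a pair of nearly equal controls.

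Mad2l1, which encodes the checkpoint effector Mad2, overlapped between groups at 9.93 and 10.30 (controls) against 8.83 and 10.12 (mutants). Mutant replicate 1 alone was low, and the difference of -0.64 (SE 0.44) became 0.01 without it. Bub3, the partner of Bub1 and BubR1, differed by -0.44 (SE 0.39) with overlap, and by 0.07 without control replicate 2. Of its dimmer tested probe sets, 1 had the opposite sign, at 0.27 (SE 0.35) with both mutants above both controls, and the other differed by -0.57 (SE 0.46). Zwint, which links Knl1 to the checkpoint, differed by -0.40 (SE 0.34) on its brightest probe set and by 0.45 (SE 0.36) on the next, each without overlap but in opposite directions, and by -0.31 (SE 0.34) on the third. Mad1l1, the kinetochore receptor of Mad2, was below the filter at 3.07 and 3.36 (controls) against 3.08 and 2.56 (mutants).

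The corona genes gave unlike values. Cenpf, a large coiled-coil protein of the outermost layer, had levels of 8.24 and 9.22 (controls) against 7.88 and 7.46 (mutants), without overlap, and differed by -1.06 (SE 0.42). On its dimmer tested probe set the sign was turned, with a difference of 0.21 (SE 0.43) and overlap. Cenpe, the kinesin that carries chromosomes to the spindle equator, stood at 6.69 and 8.20 (controls) against 7.11 and 7.64 (mutants). Both mutants lay between the controls, and its difference of -0.07 (SE 0.52) ran between -0.83 and 0.69 with 1 array left out. Another tested Cenpe probe set differed by -1.24 (SE 0.69).

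The chromosomal passenger complex corrects faulty attachments and consists of the kinase Aurkb, its activator Incenp, Birc5 (survivin) and Cdca8 (borealin). All 4 genes were lower, with a median of -0.66. Birc5 stood apart most clearly, with levels of 8.83 and 8.99 (controls) against 7.51 and 8.04 (mutants) and a difference of -1.13 (SE 0.36), and no overlap. Aurkb had levels of 9.05 and 8.85 (controls) against 7.48 and 8.93 (mutants). Mutant replicate 2 was level with the controls, and the difference of -0.75 (SE 0.49) became -0.02 without mutant replicate 1. Cdca8 stood at 10.98 and 11.37 (controls) against 10.24 and 10.95 (mutants) and differed by -0.58 (SE 0.33), with mutant replicate 2 just below control replicate 1. Its dimmer tested probe sets overlapped between groups, at -0.40 (SE 0.39) and -0.05 (SE 0.47). Incenp overlapped between groups at 11.24 and 11.91 (controls) against 10.76 and 11.48 (mutants), a difference of -0.45 (SE 0.34). In this complex mutant replicate 1 was the lowest array for every gene. That was also so for the spindle checkpoint (7 of 7) and centromeric chromatin (3 of 3), and for 30 of the 43 members.

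Symbols that start with Cenp also take in Cenpj, a protein of centrioles, and Cenpv, a protein linked to pericentromeric chromatin. Cenpj was the most positive of all members, with levels of 6.25 and 6.55 (controls) against 6.69 and 6.48 (mutants) and a difference of 0.18 (SE 0.36), and with overlap. Cenpv differed by -0.45 (SE 0.32) without overlap.

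Where a member had more than 1 tested probe set, the probe sets mostly pointed the same way. Of 20 such genes, 3 had a probe set of opposite sign, namely Bub3, Cenpf and Zwint, given above. In all, 9 genes changed sign in at least 1 alternative setting, namely Bub3, Cenpe, Cenpm, Cenpo, Cenpx, Dsn1, Mad2l1, Ndc80 and Ska1, whose differences lay between -0.64 and 0.03. The other 34 kept their sign in all 14 alternative settings. Several of these kept a sign but shrank, by unlike amounts, when 1 array was left out. Without control replicate 2 the difference was -0.37 for Bub1b, -0.57 for Cenpf, -0.32 for Cenpi, -0.33 for Spc25, -0.26 for Cenpv and -0.20 for Zwint. Without mutant replicate 1 it was -0.23 for Cdca8, -0.10 for Cenpc1, -0.43 for Cenpw, -0.60 for Spc24, -0.11 for Cenps and -0.08 for Cenpt. Without mutant replicate 2 it was -0.31 for Ska2. Incenp, Mis18a and Nsl1 shrank without either control replicate 2 (-0.12, -0.12 and -0.04) or mutant replicate 1 (-0.09, -0.14 and -0.06).

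Other genes of the pathway came from lists drawn up with the members, and differences between these lists were not tested. Among 14 further kinetochore and centromere genes, 12 were lower and 2 higher, with a median of -0.62, and 0 passed the limma test over all probe sets. At an unadjusted p below 0.05 limma gave 5 lower and 0 higher, where 3.62% of all genes were lower. Kntc1, which encodes the Rod partner of Zwilch, had levels of 7.76 and 7.91 (controls) against 6.23 and 6.49 (mutants) and a difference of -1.48 (SE 0.35). The kinesin Kif18a, which limits chromosome movement at the spindle equator, stood at 6.21 and 6.14 (controls) against 4.95 and 4.42 (mutants) and differed by -1.49 (SE 0.42). Neither gene overlapped between groups. Sgo1, which protects cohesion at the centromere, differed by -0.98 (SE 0.34) without overlap, and Sgo2a by -0.40 (SE 0.41) with overlap.

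Of 22 genes of the anaphase promoting complex and its regulators, 14 were lower and 8 higher, with a median of -0.28 and 0 past the test. At the unadjusted level 3 were lower and 0 higher, where 3.62% of all genes were lower. The inhibitor Fbxo5 differed by -1.14 (SE 0.41) and the Mad2 remodelling enzyme Trip13 by -0.88 (SE 0.32), both without overlap. All 5 genes of mitotic kinases and B cyclins were lower without overlap (against 19.2% of all genes), with a median of -0.66 and 0 past the test (0 at the unadjusted level). Among these Cdk1 differed by -0.85 (SE 0.40) and Ccnb2 by -0.75 (SE 0.40).

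Lists of other genes used in dividing cells were set beside the members. The median difference was -1.06 for 15 genes of the MCM helicase and its loading, -0.85 for 9 mitotic kinesins, -0.71 for 16 condensin and cohesin genes and -0.96 for 6 proliferation markers, against -0.61 for the members. In these lists, 13, 9, 15 and 6 genes were lower, in the same order, where 49.3% of all tested genes were. At an unadjusted p below 0.05 limma gave 9, 3, 7 and 4 lower genes, where 3.62% of all genes were lower. In each list 0 passed the limma test over all probe sets. The lowest p in each list belonged to Mcm6 (-1.83 (SE 0.32)), Kif18a (on both lists, given above), Ncapg2 (-1.50 (SE 0.35)) and Mki67 (-1.03 (SE 0.33)), the last a widely used marker of dividing cells. Among these 4 lists, the gap between the mean of the members and that of the MCM genes differed most between groups, by 0.28, with both mutant arrays on the same side of both controls. The mutant arrays also lay on that side for proliferation markers (0.25) and mitotic kinesins (0.18). For condensin and cohesin genes (0.08) the groups overlapped. Whether the members differed less than the genes of these lists was not tested.

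**Figure D4:**
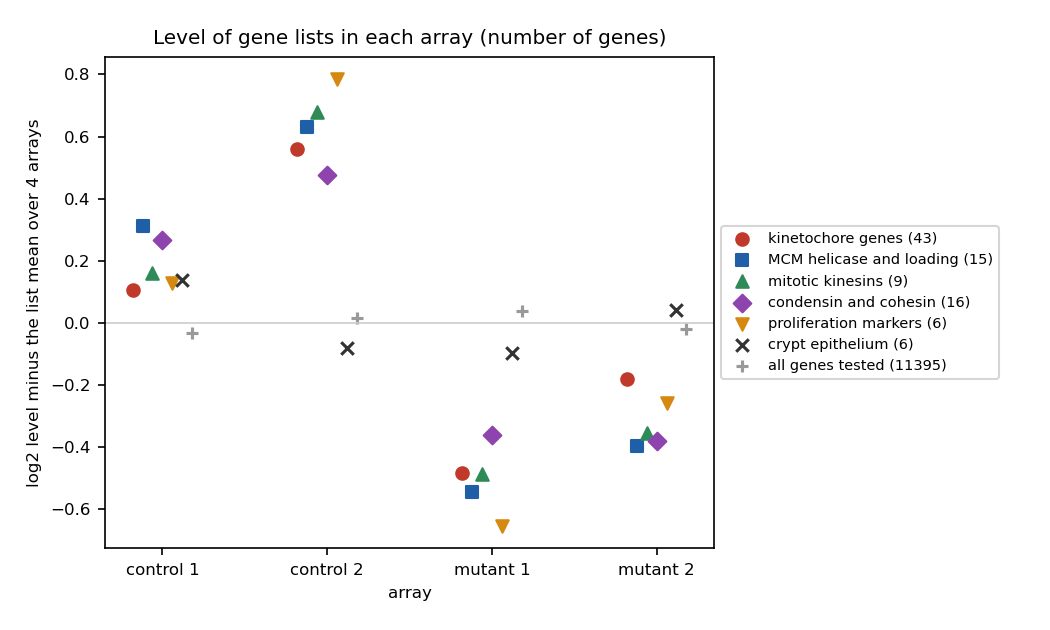
Mean log2 level of each gene list in each array, minus that list's mean over the 4 arrays, with the number of tested genes in brackets. The members stand at 0.10 and 0.56 (controls) and at -0.48 and -0.18 (mutants); the other 4 lists of dividing-cell genes lie above 0 in both controls and below 0 in both mutants, and all genes tested stay between -0.03 and 0.04.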

How the data were processed

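Per the labels, RNA of laser-captured crypts was amplified and hybridised to 4 arrays, 2 control and 2 mutant. The authors deposited 1 linear intensity per probe set, made with MAS5 per the submitters' processing notes, with no version or scaling target given in the sources used here. Control probe sets (64) were left out. Because trimmed means differed up to 1.53-fold between arrays, log2(intensity + 5) was quantile normalized. Probe sets at or above the median mean level (22519) were tested with limma 3.58.1 in R 4.3.3 (mutant against control, intensity trend, residual df 2, prior df 6.4), with Benjamini-Hochberg adjustment over all of them and a threshold of 0.05. The code was tested on simulated data.

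All members were named. Those described array by array were the 2 with the smallest p in each role, plus Cenpa, Cenpe, Ndc80, Mad2l1, Bub1, Bub1b, Aurkb, Birc5 and Incenp; array values of further members were added after they had been seen. Of each pathway and comparison list the 2 genes with the smallest p were eligible, and Sgo1 and Sgo2a were added as the current symbols of listed genes. The members and lists were chosen with earlier results of these data known. Sequences came from RefSeq (GRCm38.p6). The arrays' replicate numbers were checked for pairing. Over all tested probe sets, the difference between the control replicates and that between the mutant replicates correlated at 0.03. The arrays were therefore treated as unpaired. That value does not decide on pairing for the members, most of which had the same replicate order in both groups. Alternatives covered scaling, pseudocount, filter, variance model, probe set choice, a replicate block and leaving out each array. The precision is limited by the number of arrays.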

Additional observations from a re-analysis of the deposited data

How the results depend on the processing

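The count of members past the limma test was 0 in all 14 alternative settings, with the lowest adjusted p of a member between 0.0669 (median centring in place of quantile normalization) and 0.88 (no filter). The members' median stayed below 0 throughout. It ran from -0.81 (without mutant replicate 2) to -0.41 (without control replicate 2) and the count of lower members from 35 (without control replicate 2) to 42 (without mutant replicate 2) with 1 array left out. Members without overlap between groups numbered 26, 25 with the deposited scaling and 18 with median centring. With 1 array left out they numbered 27 to 40, but there 1 group has a single array and overlap is rarer by construction. Those counts have no share of all genes beside them and cannot be read against one. At an unadjusted p below 0.05 limma gave 12 members, 9 with the deposited scaling and 7 with median centring. With 1 array left out no count at that level is given, since the fit assumes that the lone array varies like the other group. Over all probe sets, calls numbered 0, but 102 with median centring, 85 without mutant replicate 2, 19 without mutant replicate 1, 2 with the deposited scaling and 1 with the replicate block; 0 members were among them, and the cause was not tested. With the replicate block the members' median was -0.61, 0 members passed and the lowest adjusted p of a member was 0.44. Cenpm turned its sign in 5 settings, Cenpx in 3, Cenpe and Dsn1 in 2 each, and Bub3, Cenpo, Mad2l1, Ndc80 and Ska1 in 1 each. Of all probe sets, 42.3% were lower with median centring, 52.2% with the deposited scaling and 49% to 52.6% with 1 array left out. The shares of all genes without overlap, or lower at an unadjusted p below 0.05, are given for the main setting only.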
